A study of Mus musculus with 12 samples.

Results

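The comparison described here sets the colon against the stomach in adult mice heterozygous for Spdef, an ETS family transcription factor of secretory epithelium. The labels give 2 colon HET arrays and 2 stomach HET arrays, 4 of the 12 arrays of the series, and these 4 were taken by their labelled tissue and genotype. The whole series profiled colon and stomach of Spdef HET, KO and WT mice on an Affymetrix mouse expression array, with 2 arrays per tissue and genotype. Per the labels, all mice were on a C57BL/6 background and 16 weeks old, and RNA was extracted with TRIzol from snap-frozen whole tissue, so each value mixes epithelium, muscle, vessels, nerves and blood cells. Both HET groups carry the same genotype, and tissue is the labelled difference between them. The sources used here state neither the kind of Spdef allele nor the sex of the mice, and they do not say whether the arrays of a group came from different animals. The p-values below therefore measure the spread between these samples, which may be technical, and 2 arrays a group limit the precision. In whole tissue, fewer cells of a type and less RNA per cell cannot be told apart.

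The glandular stomach is lined by mucous pit cells, acid-secreting parietal cells and pepsinogen-secreting chief cells, while the colon is lined by absorptive colonocytes and mucus-filled goblet cells over crypts with stem cells. In mice, the stomach also has a forestomach lined by squamous epithelium. The boundary between the 2 epithelia is set in development by regional transcription factors, among them Sox2 and Gata4 in the stomach, Cdx1 and Cdx2 in the intestine and the posterior Hox genes along the body axis, and each region then carries its own set of transporters, digestive enzymes, mucins and hormones.

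A level is given as log2(intensity + 16) on quantile-normalized arrays, and a difference is the colon HET mean minus the stomach HET mean on that scale, so that a difference of 1 is a doubling of intensity plus 16. Of 11807 genes with a probe set of their own, 7914 passed a filter at 6.543 (77.25 as an intensity), reached by 2 or more of the HET arrays, and were tested with limma. A gene was called where its Benjamini-Hochberg adjusted p was under 0.05. Where the mean of one tissue lay under the filter level, the difference of a called gene is also given as "at least", counted from that level to the mean of the brighter tissue. For such genes the fitted difference and its SE rest on signal near the floor of the array, and their order in size is not settled. The array has no detection call here, so a level near 4 to 5 is written as low and not as absent.

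Some arrays hold signals of other tissues. Stomach HET 1 had high squamous keratinocyte genes, and stomach HET 2 had high Alb, a liver gene. The mean over the squamous list was 5.18 and 5.44 in colon HET 1 and 2, against 8.82 and 6.39 in stomach HET 1 and 2. Colon WT 2 carried a strong small intestine signal and was left out of the fit, which used the other 11 arrays to estimate the spread. Adding colon WT 2 back left the HET levels almost as they were and widened the spread, and 859 genes were then called higher and 994 lower in colon HET.

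The colon and stomach of HET mice differed across a large share of the genes measured. In colon HET, 1193 genes (15.1%) were called higher and 1379 (17.4%) lower than in stomach HET, 32.5% of those tested, and 5342 were not called. The median difference over all genes tested was −0.05. Calls with a difference of 1 or more on the log2 scale numbered 746 higher (9.43%) and 632 lower (7.99%), and those of 2 or more numbered 326 higher (4.12%) and 239 lower (3.02%). Calls with a difference of 4 or more on the log2 scale numbered 117 higher (1.48%) and 69 lower (0.872%), so the far ends held more colon genes although lower calls were the larger group. Colon HET and stomach HET arrays did not overlap for 5763 genes (72.8%), more than the number called. The counts rest on all 4 arrays. Without stomach HET 2 they were 742 higher and 814 lower, without colon HET 1 757 and 839, without colon HET 2 762 and 871, and without stomach HET 1 862 and 954. Whichever 1 of the 4 arrays was left out, 1304 of the 2572 calls were kept.

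**Figure D1:**
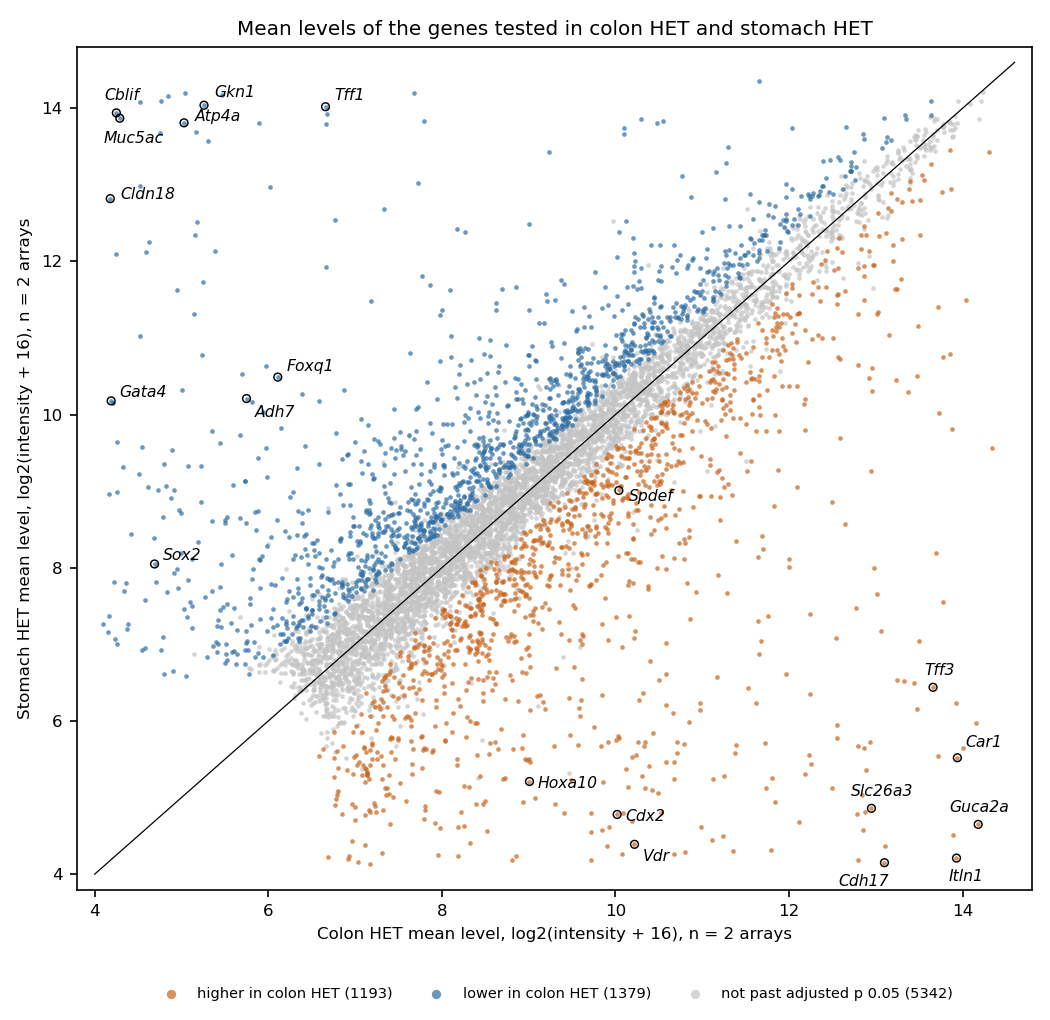
Mean log2(intensity + 16) of the 2 colon HET arrays (horizontal axis) against that of the 2 stomach HET arrays (vertical axis) for the 7914 genes tested, with genes called higher or lower in colon HET coloured. The named genes at the far corners are the regional markers and the largest differences, such as Itln1 and Guca2a high in colon HET and Cblif and Muc5ac high in stomach HET.

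The tissue labels matched their defining genes. Hoxa10, a posterior Hox gene, had levels of 8.66 and 9.36 in colon HET, against 5.39 and 5.03 in stomach HET. Car1, a cytosolic carbonic anhydrase abundant in colonocytes, had 13.96 and 13.92 in colon HET, against 5.95 and 5.09 in stomach HET. Atp4a, the catalytic subunit of the gastric proton pump, had 5.31 and 4.75 in colon HET, against 13.66 and 13.95 in stomach HET. Gkn1, a gastrokine secreted by pit cells, had 5.36 and 5.15 in colon HET, against 14.01 and 14.08 in stomach HET. These 4 genes marked the tissues when the comparison was chosen, so they serve as a check of the labels. None had overlapping groups, which was also so for 72.8% of all genes tested. The lists of absorptive colonocytes and parietal cells hold Car1 and Atp4a themselves and genes known to be high in 1 of the tissues, so their counts add no check: 13 of 13 tested colonocyte genes were called higher in colon HET (median difference 5.35), and 7 of 8 tested parietal cell genes lower (median −4.96).

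Among the 10 largest fitted differences toward the colon was Itln1, an intelectin that binds microbial glycans, with levels of 14.01 and 13.85 in colon HET, against 4.28 and 4.13 in stomach HET (difference 9.72, or at least 7.39 from the filter level, adjusted p = 3.04e-10, limma). Guca2a, which encodes guanylin, the ligand of the guanylyl cyclase receptor that drives chloride secretion, had 14.18 and 14.19 in colon HET, against 4.11 and 5.20 in stomach HET (at least 7.64). The goblet cell product Retnlb, the cadherin Cdh17, the hydroxyacid oxidase Hao2, Car1, the acute phase protein Saa2 and the goblet cell lectin Zg16 were also among the 10, together with 2610528A11Rik and 1810065E05Rik, and the bounds of all 10 ran from 6.26 for Hao2 to 7.64 for Guca2a. Among the 10 largest fitted differences toward the stomach was Cblif, the intrinsic factor that carries vitamin B12, with 4.24 and 4.26 in colon HET, against 13.91 and 13.97 in stomach HET (difference −9.69, or at least −7.40 from the filter level, adjusted p = 2.97e-10, limma). The others were the pit cell mucin Muc5ac, the phospholipase Pla2g1b, the acidic chitinase Chia1, the pepsinogen C gene Pgc, Gkn2, the hormone gene Ghrl, Gkn1 and the pump subunits Atp4a and Atp4b, and the bounds of these 10 ran from −7.13 for Ghrl to −7.66 for Gkn2. Each of these 20 genes had a mean under the filter level in the tissue where it was low.

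Short promoter windows show which of these genes carry the core letters of motifs linked to regional factors, and the 5 printed are those with a match. The 250 bases before the annotated start were read from RefSeq (build GRCm38.p6) for 15 of the 21 genes looked up, the tissue markers and the largest differences, and the other 10 windows held none of the motifs. Motifs searched on both strands were TTTATNG, the core bound by Cdx factors, AGATAA, bound by GATA factors, and CAAAGTCCA, bound by Hnf4 factors. Capitals mark the match, which reads as its reverse complement where it lies on the minus strand of the gene. The set holds 3 colon genes and 2 stomach genes are shown.
Itln1, chr1:171535295-171535544, minus strand of the genome, TTTATNG on the opposite strand at bases 30 to 24 before the start: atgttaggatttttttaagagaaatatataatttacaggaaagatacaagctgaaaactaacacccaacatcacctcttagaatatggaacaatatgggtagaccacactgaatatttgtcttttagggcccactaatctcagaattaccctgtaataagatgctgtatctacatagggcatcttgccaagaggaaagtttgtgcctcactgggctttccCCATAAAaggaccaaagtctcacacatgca
1810065E05Rik, chr11:58420861-58421110, plus strand of the genome, TTTATNG on the opposite strand at bases 32 to 26: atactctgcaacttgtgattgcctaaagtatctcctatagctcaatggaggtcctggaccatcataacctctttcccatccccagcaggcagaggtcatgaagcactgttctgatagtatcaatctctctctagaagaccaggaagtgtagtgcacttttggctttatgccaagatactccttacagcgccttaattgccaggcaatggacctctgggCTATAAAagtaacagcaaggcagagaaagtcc
Guca2a, chr4:119637482-119637731, plus strand of the genome, AGATAA on the opposite strand at bases 144 to 139 and 120 to 115: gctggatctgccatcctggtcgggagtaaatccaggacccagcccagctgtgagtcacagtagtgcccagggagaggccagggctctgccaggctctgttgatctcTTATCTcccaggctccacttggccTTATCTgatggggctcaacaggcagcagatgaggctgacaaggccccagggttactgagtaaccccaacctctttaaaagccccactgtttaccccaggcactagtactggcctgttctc
Gkn1, chr6:87350916-87351165, minus strand of the genome, AGATAA at bases 82 to 77: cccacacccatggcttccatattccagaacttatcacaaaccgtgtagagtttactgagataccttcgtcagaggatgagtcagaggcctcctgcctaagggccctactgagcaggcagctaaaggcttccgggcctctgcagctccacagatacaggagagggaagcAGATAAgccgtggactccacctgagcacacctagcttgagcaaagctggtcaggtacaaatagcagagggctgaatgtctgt
Gkn2, chr6:87373115-87373364, plus strand of the genome, AGATAA at bases 218 to 213: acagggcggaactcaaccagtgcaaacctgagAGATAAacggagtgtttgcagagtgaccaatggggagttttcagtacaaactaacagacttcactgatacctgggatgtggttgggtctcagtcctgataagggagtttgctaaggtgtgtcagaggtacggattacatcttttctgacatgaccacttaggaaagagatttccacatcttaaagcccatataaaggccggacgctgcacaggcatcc

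The same letters were present in many other windows. Of all 27025 promoter windows of this length, 10.2% held TTTATNG, 10.3% held AGATAA and 0.381% held CAAAGTCCA. Among the 6407 windows of genes tested, the shares were lower, 6.6%, 5.74% and 0.328%. Among 254 windows of genes called higher in colon HET by 2 or more, they were 10.6%, 10.6% and 1.18%. Among 188 windows of genes called lower by 2 or more, they were 12.2%, 9.57% and 0%. TTTATNG near the start can also be a TATA box read on the other strand, and in 1810065E05Rik it overlapped TATAAA. These shares are given without a test. A match describes letters in a window and not a bound site.

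Regional transcription factors separated the tissues by cluster and family. Of the gastric list, 10 of 13 matched genes were tested, and 9 were called lower and 1 higher in colon HET (median difference −2.70, against −0.05 over all genes). A member that passed the filter only through the tissue where it is high had to differ, so this and every later count over tested members is a description, to be read beside the 15.1% called higher and 17.4% called lower among all genes. Gata4, a zinc finger factor of foregut endoderm, had 4.12 and 4.25 in colon HET, against 10.01 and 10.35 in stomach HET (difference −6.0, SE 0.19, at least −3.64, adjusted p = 2.95e-08, limma). Sox2, which specifies foregut and gastric epithelium, had 4.86 and 4.52 in colon HET, against 8.01 and 8.08 in stomach HET (difference −3.36, SE 0.27, at least −1.50, adjusted p = 1.51e-05, limma). Foxq1, a forkhead factor needed for Muc5ac in mouse pit cells, differed by −4.38 (at least −3.95), and the Sox factor Sox21 by −3.79 (at least −2.22). The groups did not overlap for any of these 4, which was also so for 72.8% of all genes tested. Gata6, the GATA factor that the intestine keeps, was closer between tissues, with 9.17 and 9.45 in colon HET, against 10.48 and 10.44 in stomach HET (difference −1.15, SE 0.18, adjusted p = 0.00117, limma).

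Of 18 intestinal factors tested, 11 were called higher and 1, Gata6, lower in colon HET (median 1.21). Cdx2, the homeobox factor that specifies intestine, had 10.23 and 9.81 in colon HET, against 5.13 and 4.42 in stomach HET (difference 5.25, SE 0.47, at least 3.48, adjusted p = 3.47e-05, limma). Its relative Cdx1 differed by 5.27 (at least 3.30), the vitamin D receptor Vdr by 5.83 (at least 3.68) and Atoh1, which commits cells to the secretory lineage, by 5.13 (at least 4.16). For Atoh1 the levels were 10.55 and 10.86 in colon HET, against 5.50 and 5.65 in stomach HET. In each of these 4 genes, both colon HET arrays lay at least 4 units above both stomach HET arrays. The lipid sensor Ppara (7.70 and 7.36 in colon HET, 6.50 and 6.16 in stomach HET, adjusted p = 0.199) and the mesenchymal homeobox factor Nkx2-3 (7.18 and 7.01, against 6.36 and 6.51, adjusted p = 0.0563) were not called, although another probe set of Nkx2-3 differed by 1.24 (adjusted p = 0.0123, every probe set tested). Hnf4a, a nuclear receptor found in both epithelia and picked after its values were seen, had 11.90 and 12.10 in colon HET, against 10.36 and 10.38 in stomach HET.

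The Hox genes that could be tested leaned to the colon. Of 19 matched HoxA and HoxB genes, 8 passed the filter, and 7 were called higher and none lower in colon HET (median 2.35). Hoxa10 differed by 3.81 (SE 0.49, at least 2.47, adjusted p = 0.000341, limma) and Hoxb9 by 3.38 (at least 1.44), with 8.14 and 7.82 in colon HET, against 5.10 and 4.09 in stomach HET. Hoxa5, a more anterior member, had 7.76 and 8.16 in colon HET, against 7.14 and 7.40 in stomach HET, and was not called (adjusted p = 0.209). Of 14 matched HoxC and HoxD genes only 3 passed, of which Hoxd10 (2.28, at least 0.45) and Hoxd8 (1.97, at least 1.23) were called and Hoxd9 (1.71, adjusted p = 0.0666) was not. Several of these calls were fragile. Those of Hoxb6 (2.88, at least 2.48) and Hoxd8 ended without any 1 of the 4 HET arrays, with adjusted p from 0.0777 to 0.197 and from 0.0591 to 0.157, and that of Hoxd10 ended without stomach HET 1, colon HET 1 or colon HET 2 (0.0588 to 0.139). Tbx3, a T-box factor on the gastric list, was called higher in colon HET (8.26 and 8.13, against 6.40 and 6.17 in stomach HET, difference 1.91, at least 1.65), and its call ended without any 1 array (0.0566 to 0.0935). Hoxa9, Hoxb6, Hoxd8, Hoxd10 and Tbx3 also lost their calls with colon WT 2 in the fit. Hoxb13, the most posterior HoxB gene, did not pass the filter, and was at 4.39 and 8.25 in colon HET, against 4.41 and 4.16 in stomach HET. Only colon HET 2 was high, a split between the colon arrays that also appears in Aqp8, Atp12a and Insl5 below. Hoxb13 was picked after its values were seen.

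Spdef, the gene targeted in these mice, gave a signal above the filter level in both tissues. Its levels were 10.27 and 9.81 in colon HET, against 9.07 and 8.95 in stomach HET (difference 1.03, SE 0.18, adjusted p = 0.00229, limma). The groups did not overlap, which was also so for 72.8% of all genes tested. The call ended with colon WT 2 in the fit (adjusted p = 0.212). In the other genotypes Spdef was at 9.08 and 9.26 in colon KO and at 10.97 in colon WT 1, and at 8.87 and 8.64 in stomach KO, against 9.19 and 8.96 in stomach WT. Whether its probes lie in the part of the gene changed in KO mice is not given in the sources used here. The level of a KO array therefore checks nothing on its own, and how much of any level is intact Spdef transcript was not tested. Of 5 epithelial ETS factors tested, 4 were called higher in colon HET: Ehf (difference 2.17), Ets2 (1.67), Etv1 (1.37) and Spdef. The other probe set of Etv1 differed by 0.57 (adjusted p = 0.0705, every probe set tested). Elf3 had 10.92 and 11.11 in colon HET, against 11.34 and 11.41 in stomach HET, and was not called (adjusted p = 0.101).

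**Figure D2:**
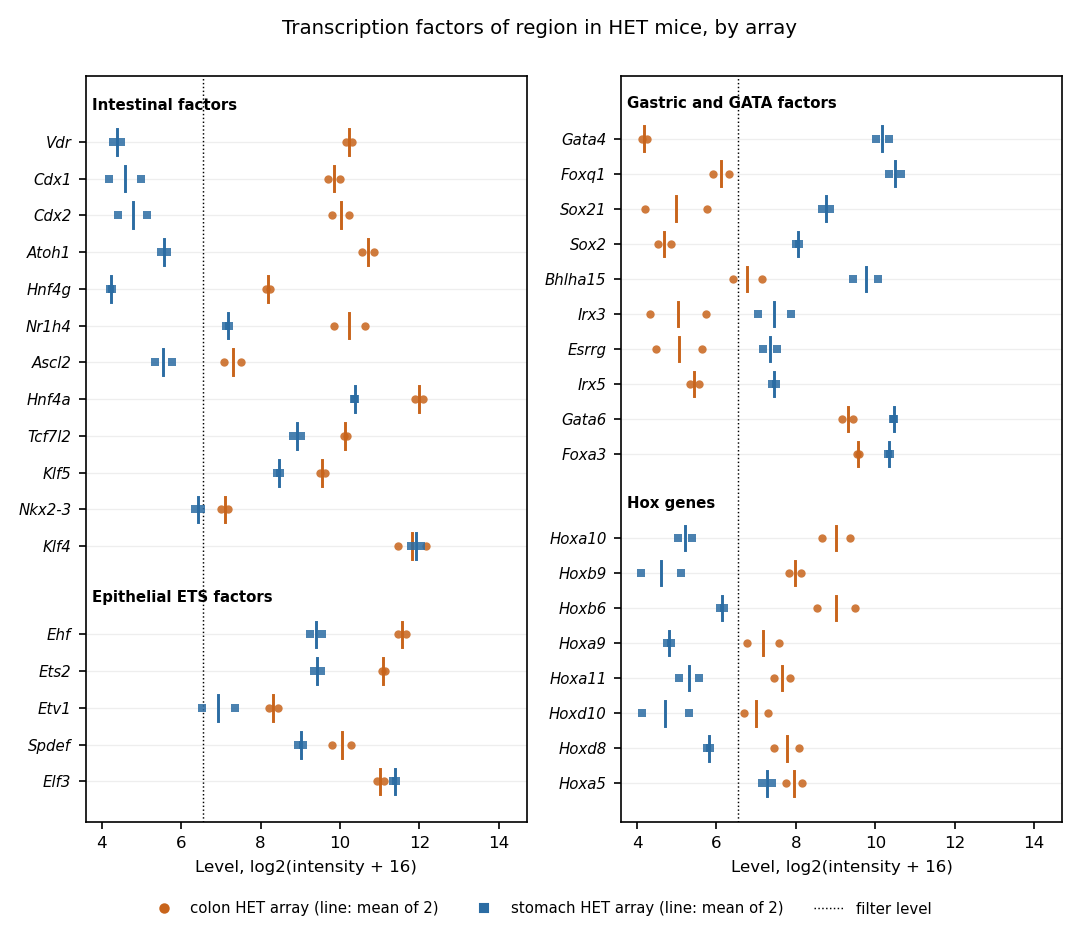
Log2(intensity + 16) of regional transcription factors in each colon HET array and each stomach HET array, 1 point per array, with a short line at each group mean and a dotted line at the filter level of 6.543. Gata4, Sox2 and Foxq1 are low in colon HET and high in stomach HET, Cdx1, Cdx2, Vdr and Atoh1 show the opposite, and Gata6 and Spdef are well above the line in both tissues; plotted genes that the text does not name were chosen after their values were seen.

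**Figure D3:**
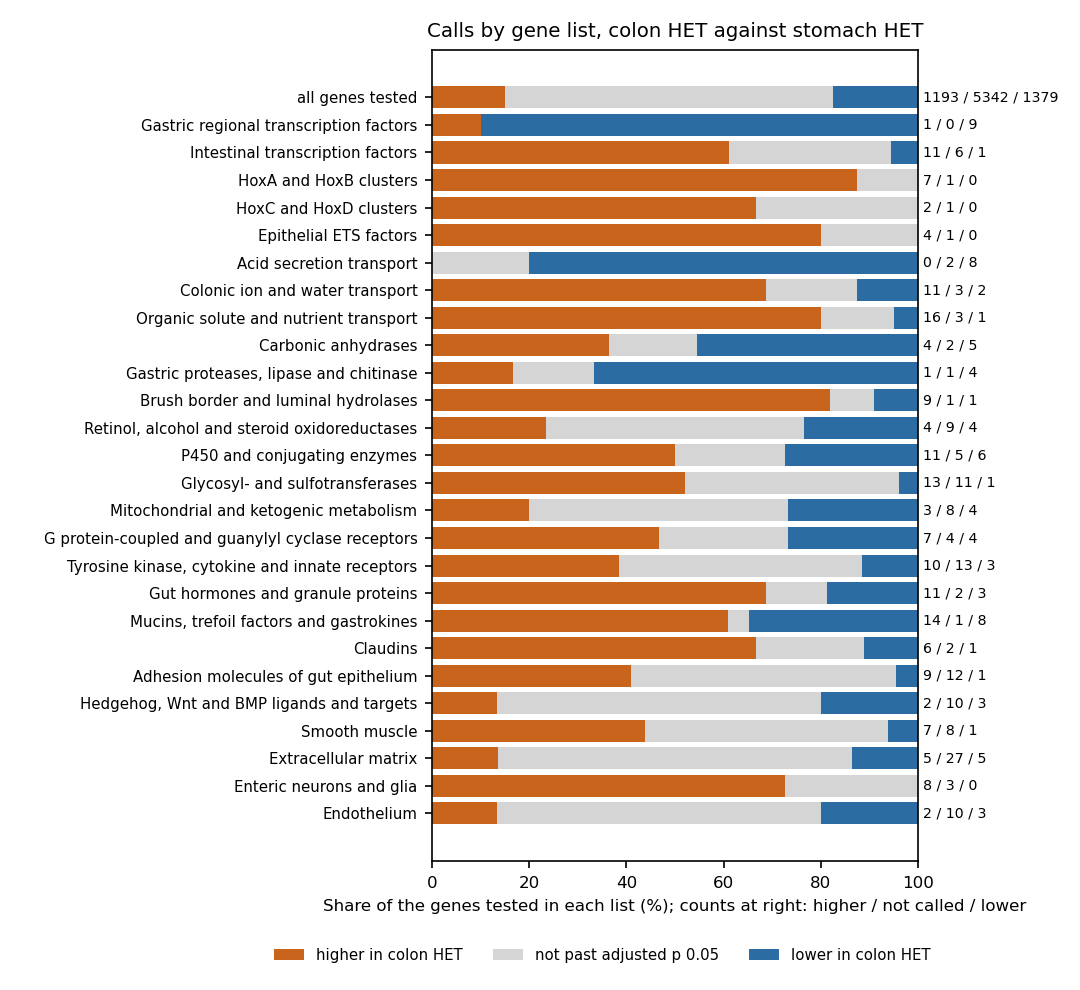
Share of the tested members of each gene list called higher, not called and called lower in colon HET against stomach HET (horizontal axis, percent), with the 3 counts at the right and all genes tested at the top. The acid secretion and gastric factor bars are mostly lower calls, the Hox and organic solute bars mostly higher calls, and 27 of 37 matrix genes are not called.

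Transport genes for acid secretion were low in the colon. Of 10 tested, 8 were called lower and none higher in colon HET (median −3.60). Atp4b, the glycosylated beta subunit of the proton pump, had 5.09 and 5.86 in colon HET, against 14.13 and 14.21 in stomach HET (difference −8.70, SE 0.22, at least −7.63, adjusted p = 7.08e-09, limma). Kcne2, the potassium channel subunit that recycles potassium at the pump, had 5.49 and 4.84 in colon HET, against 12.31 and 12.38 in stomach HET (difference −7.18, SE 0.25, at least −5.80). Slc5a5, the iodide symporter, differed by −4.74 (at least −2.45), and Slc26a7, a parietal cell anion exchanger, by −2.75, with at least −0.47 from the filter level. The other members were less one-sided. Aqp4, the basolateral water channel of parietal cells, had 11.24 and 12.30 in colon HET, against 11.19 and 11.35 in stomach HET, overlapping and not called (adjusted p = 0.447), and Slc12a2, the sodium, potassium and chloride cotransporter, differed by −0.28 (adjusted p = 0.233).

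Ion and water transport genes of the colon were mostly higher there. Of 16 genes tested, 11 were called higher and 2 lower in colon HET (median 2.53). Slc26a3, the chloride and bicarbonate exchanger of surface colonocytes, had 12.50 and 13.41 in colon HET, against 4.92 and 4.80 in stomach HET (difference 8.10, SE 0.47, at least 6.41, adjusted p = 1.76e-06, limma). Cftr, the crypt chloride channel, had 9.59 and 9.38 in colon HET, against 5.05 and 5.41 in stomach HET (difference 4.26, SE 0.36, at least 2.94). Clca1, a metalloprotease of goblet cell mucus, differed by 4.06, with levels of 9.63 and 9.99 in stomach HET. Its other probe set had 5.61 and 5.69 in stomach HET, under the filter level. That probe set differed by 5.10 (adjusted p = 0.000192, limma, every probe set tested). The water channel Aqp8 differed by 4.99 (at least 4.17), but its colon HET arrays lay far apart, at 9.07 and 12.35, against 5.42 and 6.01 in stomach HET. Its call ended without colon HET 2 (difference 3.35, adjusted p = 0.0624), without stomach HET 1 (0.0523) and with colon WT 2 in the fit (0.0565). Sgk1, a kinase that activates the epithelial sodium channel, was lower in colon HET by −0.99 and ended its call with colon WT 2 in the fit (0.0824). The channel subunit Scnn1a (−0.57, adjusted p = 0.224) and the sodium pump subunit Atp1b1 (−0.23, adjusted p = 0.142) were not called.

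Within 3 transporter families, members were called in opposite directions, while the aquaporin Aqp4, high in both tissues as given above, was not called. The catalytic proton pumps split, with Atp4a low in colon HET and Atp12a, the colonic form, at 7.85 and 10.07 in colon HET, against 5.62 and 5.39 in stomach HET (difference 3.46, at least 2.42, adjusted p = 0.0366, limma). That call for Atp12a ended without colon HET 2 (difference 2.35, 0.224), without either stomach HET array (0.108 and 0.143) and with colon WT 2 in the fit (0.0517). Among SLC26 anion exchangers, Slc26a3 and Slc26a2, a sulfate carrier (2.65), were higher in colon HET, and Slc26a6, an apical exchanger (−3.15, at least −2.13), and Slc26a7 were lower. The call of Slc26a6 ended with colon WT 2 in the fit (0.133). Among aquaporins, Aqp8 and the endothelial and epithelial channel Aqp1 (2.68) were higher and Aqp3, a glycerol and water channel, lower, with 5.74 and 5.73 in colon HET, against 8.97 and 9.29 in stomach HET (difference −3.40, at least −2.59).

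Carriers of organic solutes were mostly higher in the colon, 16 of 20 tested, with 1 lower (median 2.79). Slc6a14, a sodium and chloride dependent amino acid carrier, had 12.85 and 12.70 in colon HET, against 4.30 and 5.27 in stomach HET (difference 7.99, SE 0.33, at least 6.23, adjusted p = 1.79e-07, limma). Abcb1a, the drug efflux pump P-glycoprotein, differed by 7.21 (at least 6.32), the dicarboxylate carrier Slc13a2 by 6.6 (at least 6.01) and the cystine carrier subunit Slc3a1 by 5.49 (at least 3.64). The amino acid exchanger Slc7a8 went the other way, with 5.71 and 5.75 in colon HET, against 8.96 and 9.32 in stomach HET (difference −3.41, at least −2.60). Slc10a2, the bile acid carrier best known from the ileum, had 10.60 and 10.18 in colon HET, against 5.30 and 5.51 in stomach HET (difference 4.98, SE 1.53, at least 3.85, adjusted p = 0.0335). Its groups were far apart, but its call ended without any 1 of the 4 HET arrays (0.0995 to 0.132) and with colon WT 2 in the fit (0.0601). Abcc3, an organic anion pump, and Slc23a2, a vitamin C carrier, differed by 0.38 and 0.34 and were not called.

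**Figure D4:**
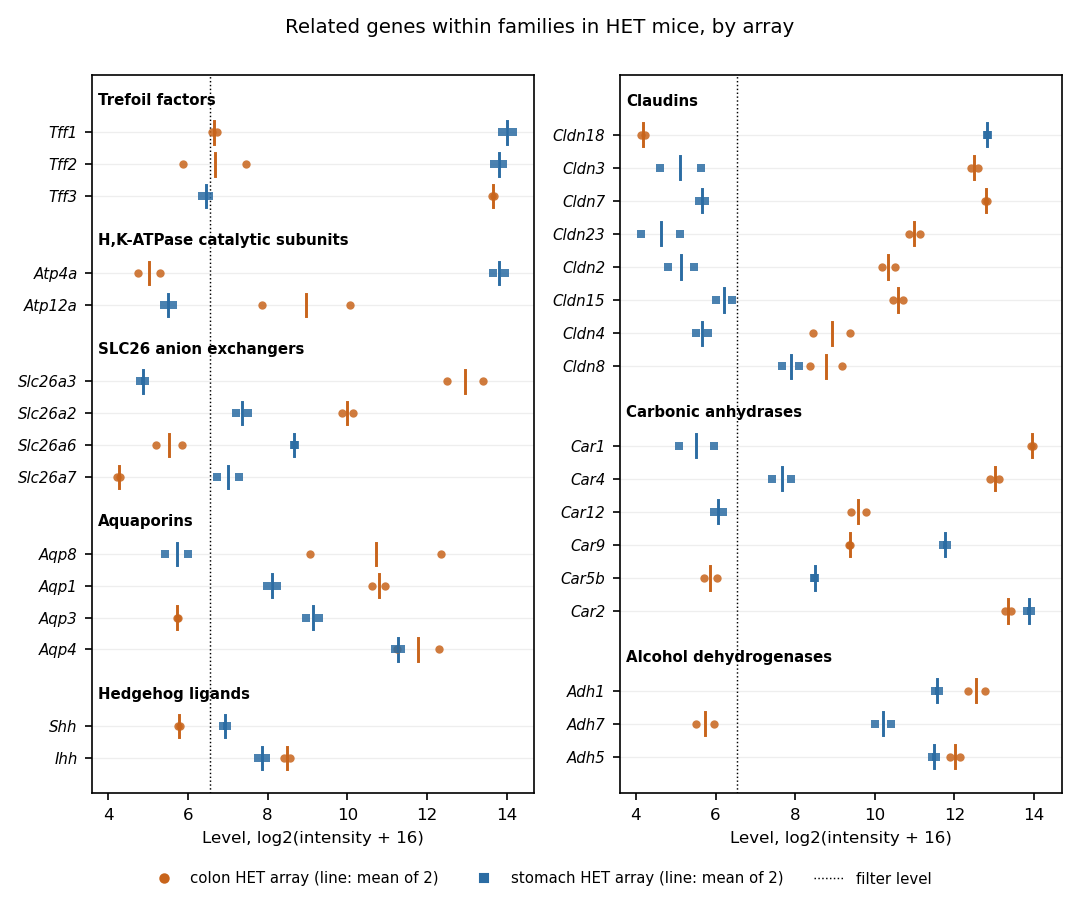
Log2(intensity + 16) in each colon HET and stomach HET array for members of gene families that split between the tissues (trefoil factors, proton pumps, SLC26 exchangers, aquaporins, hedgehog ligands, claudins, carbonic anhydrases and alcohol dehydrogenases), 1 point per array, with a short line at each group mean and a dotted line at the filter level. Tff3 is high in colon HET and Tff1 and Tff2 in stomach HET, and Aqp8 and Atp12a show the wide gap between the 2 colon HET arrays.

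Carbonic anhydrases, which make bicarbonate and protons from carbon dioxide, divided between the tissues. Of 11 tested, 4 were called higher and 5 lower in colon HET (median 0.02). Car1 differed by 8.42 (SE 0.30, at least 7.40, adjusted p = 6.59e-08, limma). Car4, a membrane-anchored form, had 12.90 and 13.12 in colon HET, against 7.42 and 7.90 in stomach HET (difference 5.35, SE 0.22), and Car12 differed by 3.52 (at least 3.05). Car9, a membrane form strong in gastric epithelium, had 9.36 and 9.38 in colon HET, against 11.82 and 11.71 in stomach HET (difference −2.39, SE 0.26, adjusted p = 0.000127, limma), and the mitochondrial Car5b differed by −2.62 (at least −1.95). The cytosolic Car3 (1.32, adjusted p = 0.121) and the catalytically inactive Car11 (0.02) were not called. Calls of Car8 (1.64, at least 0.86, without colon HET 1, 0.0656), Car13 (−0.74, without stomach HET 2, 0.145, or colon HET 1, where it was −0.46, 0.177) and Car15 (−0.83, at least −0.06, without any 1 array, 0.117 to 0.148) did not hold, and those of Car13 and Car15 also ended with colon WT 2 in the fit.

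Digestive enzymes of the stomach and of the intestinal brush border had opposite patterns. Pgc had 4.99 and 4.68 in colon HET, against 14.07 and 14.25 in stomach HET (difference −9.32, SE 0.15, at least −7.62, adjusted p = 2.97e-10, limma). The pepsinogen gene Pga5 differed by −6.95 (at least −6.43), and the endosomal protease Ctse of pit cells by −6.52, with 7.60 and 7.76 in colon HET, above the filter level. On the gastric protease list 4 of 6 were called lower and 1 higher in colon HET (median −6.73); the higher one was the lysosomal Ctsz (0.99), and Lyz2, a lysozyme of macrophages, differed by 0.06 and was not called. Of 11 brush border genes, 9 were called higher and 1 lower (median 3.03). Mep1a, a subunit of the metalloprotease meprin, had 12.47 and 12.63 in colon HET, against 5.96 and 5.59 in stomach HET (difference 6.77, SE 0.37, at least 6.01, adjusted p = 1.08e-06, limma). Mep1b, the other meprin subunit, differed by 7.48 (at least 5.25), Ush1c, a scaffold of intermicrovillar links, by 5.82 (at least 3.54) and the protocadherin Cdhr5 by 5.29. Anpep, an aminopeptidase, was the lower one, with 5.6 and 5.76 in colon HET, against 9.53 and 9.95 in stomach HET (difference −4.06, at least −3.20), and its call ended with colon WT 2 in the fit (0.101). The actin bundler Espn differed by 0.28 with overlapping groups (adjusted p = 0.661).

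Enzymes of retinol, alcohol and steroid metabolism were balanced, with 4 of 17 called higher and 4 lower in colon HET (median 0.37). Aldh3a1, an aldehyde dehydrogenase, had 4.33 and 4.17 in colon HET, against 12.03 and 12.18 in stomach HET (difference −7.85, SE 0.30, at least −5.56, adjusted p = 9.53e-08, limma). Adh7, the class IV alcohol dehydrogenase of stomach, differed by −4.46 (at least −3.67), and the steroid enzyme Hsd17b6 by −4.26 (at least −2.79), although its other probe set, under the filter level, differed by 0.11. Hsd11b2, which inactivates glucocorticoids in aldosterone target cells, had 11.02 and 10.68 in colon HET, against 5.91 and 6.08 in stomach HET (difference 4.86, SE 0.24, at least 4.31), and Hsd3b3 and Hsd17b2 differed by 3.56 (at least 1.93) and 1.85. Among alcohol dehydrogenases, the class I gene Adh1 was called higher (0.99), a call lost without stomach HET 1 (0.0762), stomach HET 2 (0.0582) or colon HET 2 (0.106) and with colon WT 2 in the fit (0.061). Adh5, the widely expressed class III gene, differed by 0.52 and was not called (adjusted p = 0.246). Aldh1a7 was lower by −1.10, and its call ended with colon WT 2 in the fit (0.112).

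Among 22 P450 and conjugating enzymes tested, 11 were called higher and 6 lower in colon HET (median 0.92). Cyp2c55, an arachidonate P450 of colon, had 13.92 and 13.92 in colon HET, against 6.21 and 6.27 in stomach HET (difference 7.68, SE 0.32, at least 7.38, adjusted p = 1.58e-07, limma). Cyp4f14, a fatty acid hydroxylase, differed by 6.51 (at least 4.26), the glucuronosyltransferase Ugt2b5 by 5.32 (at least 3.88) and the sulfotransferase Sult1a1 by 3.72. Gsta4, a glutathione transferase for lipid aldehydes, had 10.87 and 10.22 in colon HET, against 13.82 and 13.84 in stomach HET (difference −3.28, SE 0.39, adjusted p = 0.000211, limma). Cyp1b1 differed by −3.15 (at least −1.80), though its other probe sets differed by −1.68 and 0.87, and Sult1c2 by −2.01, a call lost with colon WT 2 in the fit (0.104). Gstt1 was called at −1.14 and lost its call without stomach HET 2 (0.0633) or colon HET 2 (0.0555). Cyp2e1 (1.79, adjusted p = 0.106) and Gstm3 (1.12, adjusted p = 0.084) were not called.

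Glycosyltransferases and sulfotransferases, some of which build mucin glycans, were called higher for 13 of 25 tested and lower for 1 (median 0.79). St6galnac6, a sialyltransferase, had 11.83 and 12.12 in colon HET, against 6.16 and 7.05 in stomach HET (difference 5.37, SE 0.34, adjusted p = 2.83e-06, limma). St6galnac1, which caps mucin chains with sialic acid, differed by 3.70 (at least 1.41), the galactosyltransferase B3galt5 by 3.51 (at least 2.47, call lost with colon WT 2 in the fit, 0.059) and the sulfotransferase Chst4 by 3.33 (at least 3.06). B4galt1 was the lower one (−0.72), and its call ended without any 1 of the 4 HET arrays (0.0634 to 0.101). B4galnt1 (−0.98) and the fucosyltransferase Fut4 (−0.96) were not called.

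The list of mitochondrial and ketogenic metabolism, not all of whose members are mitochondrial, was split. Of 15 tested, 3 were called higher and 4 lower in colon HET (median −0.33). Fabp3, the fatty acid binding protein of oxidative muscle and parietal cells, had 6.77 and 6.77 in colon HET, against 12.50 and 12.59 in stomach HET (difference −5.77, SE 0.13, adjusted p = 3.02e-09, limma). Pdk4, a kinase that restrains pyruvate dehydrogenase, differed by −2.38, the cytochrome oxidase subunit Cox7a1 by −2.28 and the malate dehydrogenase Mdh1 by −0.59. Acads, which oxidizes short-chain fatty acids, had 10.62 and 10.45 in colon HET, against 9.15 and 9.30 in stomach HET (difference 1.31, SE 0.19), and Fbp2 differed by 1.16. Ckmt1, the mitochondrial creatine kinase, was called at 0.52, but its other probe set differed by −0.06 (adjusted p = 0.719, every probe set tested), and its call ended without quantile normalization (0.35, adjusted p = 0.149), without stomach HET 1 or 2 (0.156 and 0.102), without colon HET 2 (0.33, 0.247) and with colon WT 2 in the fit (0.0526). Hadhb (−0.47) and Acadl (−0.41), enzymes of long-chain fatty acid oxidation, were not called.

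Receptors differed by member. Gucy2c, the receptor of guanylin, had 11.53 and 11.52 in colon HET, against 6.43 and 6.42 in stomach HET (difference 5.10, SE 0.22, at least 4.98, adjusted p = 2.19e-07, limma). The purine receptors P2ry1 and P2ry2 differed by 3.25 (at least 1.38) and 2.88 (at least 0.50), and Gpr35, a receptor of colonic epithelium and immune cells, by 2.63 (at least 1.05). Cckar, the cholecystokinin receptor of chief and D cells, had 6.74 and 7.61 in colon HET, against 11.43 and 11.52 in stomach HET (difference −4.30, SE 0.26, adjusted p = 2.56e-06, limma). Hrh2, the histamine receptor that triggers acid secretion, had 5.16 and 5.55 in colon HET, against 7.57 and 7.82 in stomach HET (difference −2.34, at least −1.15), and the somatostatin receptor Sstr2 differed by −2.0 (at least −1.90). Of 15 tested G protein-coupled and cyclase receptors, 7 were called higher and 4 lower in colon HET (median 0.77), and 13 of 28 matched genes did not pass the filter. Lgr5, a stem cell receptor of crypts and gastric glands, was called at −0.75 and lost its call without stomach HET 2 (0.12), colon HET 1 (0.0717) or colon HET 2 (0.0797) and with colon WT 2 in the fit (0.0747). The prostaglandin receptor Ptger3 and the endothelin receptor Ednrb differed by 0.77 and 0.56 and were not called.

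Among 26 kinase, cytokine and innate receptors tested, 10 were called higher and 3 lower in colon HET (median 0.62). Pigr, which carries IgA across the epithelium, had 13.79 and 13.59 in colon HET, against 8.78 and 7.62 in stomach HET (difference 5.49, SE 0.32, adjusted p = 1.63e-06, limma). Tlr2, a receptor of bacterial lipoproteins, differed by 2.04, the growth factor receptor Fgfr2 by 1.84 and Kit, the marker of interstitial cells and mast cells, by 1.45. Tnfrsf21, a death receptor, had 9.33 and 9.08 in colon HET, against 11.63 and 11.51 in stomach HET (difference −2.37, SE 0.17). Ephb3 differed by −1.23, a call lost with colon WT 2 in the fit (0.111), and Igf1r by −1.14, lost without stomach HET 2 (0.0983) or colon HET 2 (0.0872). Ntrk2 (1.12) and Erbb2 (1.09) were not called.

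Secreted products of the mucosa split into a colonic and a gastric set. Of 23 mucins, trefoil factors, gastrokines and related products, 14 were called higher and 8 lower in colon HET (median 2.31). Muc3, a membrane mucin of enterocytes, had 13.76 and 13.69 in colon HET, against 5.64 and 5.43 in stomach HET (difference 8.18, SE 0.21, at least 7.18, adjusted p = 7.08e-09, limma). Retnlb had 13.71 and 14.06 in colon HET, against 4.15 and 4.88 in stomach HET, and Zg16 had 14.11 and 14.21 in colon HET, against 5.18 and 6.76 in stomach HET. For each of these, the tissues were separated by several units. Muc5ac, the gel-forming mucin of pit cells, had 4.47 and 4.12 in colon HET, against 13.93 and 13.82 in stomach HET (difference −9.58, SE 0.16, at least −7.33, adjusted p = 3.79e-10, limma). Gkn2 had 5.67 and 4.41 in colon HET, against 14.08 and 14.32 in stomach HET (difference −9.16, at least −7.66). Capn9, a calpain of gastric and intestinal mucous cells, had 9.63 and 10.01 in colon HET, against 9.94 and 10.03 in stomach HET, and was not called (adjusted p = 0.797).

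The trefoil factors, small peptides that protect mucosa, divided by tissue. Tff3 had 13.64 and 13.68 in colon HET, against 6.52 and 6.36 in stomach HET (difference 7.22, SE 0.22, at least 7.12, adjusted p = 2.31e-08, limma). Tff1 had 6.72 and 6.61 in colon HET, against 13.88 and 14.15 in stomach HET (difference −7.35, SE 0.15). Tff2 had 5.88 and 7.46 in colon HET, against 13.68 and 13.92 in stomach HET (difference −7.13, SE 0.39), so colon HET 2 lay above colon HET 1 but far under both stomach arrays.

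Gut hormones also divided between the tissues, with 11 of 16 tested called higher and 3 lower in colon HET (median 1.52). Ghrl, the gene of the appetite hormone ghrelin, had 5.30 and 4.20 in colon HET, against 13.69 and 13.67 in stomach HET (difference −8.93, SE 0.33, at least −7.13, adjusted p = 8.35e-08, limma). Hdc, which makes histamine in enterochromaffin-like cells, differed by −4.24 (at least −2.53), and Sst, the somatostatin gene, by −2.10, with 10.31 and 10.08 in colon HET, against 12.02 and 12.58 in stomach HET. Gcg, the proglucagon gene of L cells, had 11.61 and 11.74 in colon HET, against 7.11 and 6.99 in stomach HET (difference 4.63, SE 0.19, adjusted p = 1.58e-07, limma). Nts, the neurotensin gene, differed by 6.90 (at least 5.30) and Sct, the secretin gene, by 5.54 (at least 3.17). Insl5, a hormone of distal colon L cells, had 7.87 and 10.95 in colon HET, against 5.26 and 4.35 in stomach HET (difference 4.61, at least 2.87, adjusted p = 0.0334). Its colon arrays lay far apart, and its call ended without colon HET 2 (difference 3.07, 0.211), without stomach HET 1 (0.0834) or 2 (0.157) and with colon WT 2 in the fit (0.055). The granule genes Chga (10.62 and 10.13 in colon HET, 11.82 and 12.09 in stomach HET) and Chgb (12.03 and 11.76, against 10.60 and 10.55) leaned in opposite directions and were not called (adjusted p = 0.105 and 0.101).

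Tight junction genes differed strongly by member. Of 9 claudins tested, 6 were called higher and 1 lower in colon HET (median 4.37). Cldn18, the claudin of gastric epithelium, had 4.24 and 4.12 in colon HET, against 12.81 and 12.83 in stomach HET (difference −8.64, SE 0.14, at least −6.28, adjusted p = 2.97e-10, limma). Cldn3 had 12.41 and 12.58 in colon HET, against 5.63 and 4.60 in stomach HET (difference 7.38, SE 0.53, at least 5.95), and Cldn7 had 12.76 and 12.81, against 5.74 and 5.59 (difference 7.12, SE 0.26, at least 6.24). Cldn23 differed by 6.38 (at least 4.45) and the pore-forming Cldn2 by 5.21 (at least 3.8). Cldn8 (0.89, adjusted p = 0.387) and the endothelial Cldn5 (0.17) were not called. Of 22 adhesion genes, 9 were called higher and 1 lower (median 0.55). Cdh17 had 13.02 and 13.18 in colon HET, against 4.19 and 4.12 in stomach HET (difference 8.94, SE 0.26, at least 6.55, adjusted p = 1.65e-08, limma), and Ceacam1 differed by 6.81 (at least 6.79), Gpa33, an antigen of intestinal epithelium, by 3.98 (at least 3.72) and Marveld3 by 2.84 (at least 2.01). Vsig2 was the lower one, with 8.37 and 8.17 in colon HET, against 12.47 and 12.28 in stomach HET (difference −4.10, SE 0.13). The plakophilin Pkp1 had 7.31 and 7.81 in colon HET, against 8.15 and 4.47 in stomach HET. It was not called (1.25, adjusted p = 0.344) but was called higher without stomach HET 1, the array with the squamous signal (3.09, adjusted p = 0.00393). Itgb6 (−0.61) was not called.

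In the stroma, most matrix genes were not called. Of 37 matrix genes tested, 5 were called higher, 5 lower and 27 not (median −0.10). The shares called, 13.5% higher and 13.5% lower, lie near the 15.1% and 17.4% over all genes tested. Tnc, the matrix protein tenascin C, had 9.35 and 9.55 in colon HET, against 8.20 and 7.62 in stomach HET (difference 1.54, SE 0.24, adjusted p = 0.000929, limma). Postn differed by 1.21 (call lost with colon WT 2 in the fit, 0.0887). Mfap4, a microfibril protein, had 7.18 and 7.13 in colon HET, against 8.78 and 8.75 in stomach HET (difference −1.61, SE 0.24), and the basement membrane chain Col4a5 differed by −1.26, with −0.48 on its other probe set (adjusted p = 0.159, every probe set tested). The calls of Col6a3 (0.89), Aspn (0.76), Eln (−1.28) and Col15a1 (−1.06) each depended on single arrays. Col6a3 lost its call without stomach HET 1 (0.0798), stomach HET 2 (0.0546) or colon HET 1 (0.116), Aspn without stomach HET 2 (difference 0.50, 0.166) or colon HET 2 (0.131), Eln without stomach HET 2 (0.151), colon HET 1 (0.0599) or colon HET 2 (0.111), and Col15a1 without stomach HET 2 (0.0989) or colon HET 2 (0.0945). Col6a3 and Aspn also lost theirs with colon WT 2 in the fit. Another probe set of Aspn differed by 1.17 (adjusted p = 0.000225, limma, every probe set tested). Tnxb (0.87, adjusted p = 0.0829) was not called in the full fit and was called without stomach HET 2 (1.4, 0.0182), and Prelp (0.69) was not called, though its other probe set differed by 0.95 (adjusted p = 0.0193, every probe set tested).

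Of 16 smooth muscle genes, 7 were called higher and 1 lower in colon HET (median 0.53). Ppp1r14a, an inhibitor of myosin phosphatase, had 8.77 and 8.98 in colon HET, against 6.43 and 6.09 in stomach HET (difference 2.62, SE 0.22, at least 2.34, adjusted p = 2.09e-05, limma). Mylk, the myosin light chain kinase, differed by 0.99, and Npnt, a matrix ligand of integrins, by −1.63. Pcp4 (1.31) lost its call without stomach HET 1 (0.0789), stomach HET 2 (0.0603) or colon HET 1 (0.106), and Des, the muscle intermediate filament (0.79), without stomach HET 2 (0.0737), colon HET 2 (0.0893) and with colon WT 2 in the fit (0.328). Myh11, the smooth muscle myosin, had 12.30 and 12.55 in colon HET, against 11.69 and 12.05 in stomach HET, and was not called (0.56, adjusted p = 0.0583); Casq2 differed by −0.87 and was not called either.

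Neuronal genes leaned to the colon in HET mice, with 8 of 11 tested called higher and none lower (median 1.61). Uchl1, a neuronal ubiquitin hydrolase, had 8.41 and 8.74 in colon HET, against 6.83 and 5.99 in stomach HET (difference 2.17, SE 0.41, at least 2.04, adjusted p = 0.00321, limma). The neurofilament gene Nefl differed by 1.91 (at least 0.56), Gap43 by 1.71 (at least 0.95) and Stmn2 by 1.71. In each of these 4 genes stomach HET 2 lay under stomach HET 1. Nefl lost its call without colon HET 2 (0.0564), Gap43 without colon HET 2 (0.0558), and Stmn2 without stomach HET 2 (0.102) or colon HET 2 (0.0797). Without stomach HET 2 the difference of Gap43 was 1.12. The same difference for Uchl1 was 0.43 between KO tissues and 1.27 between WT tissues, and for Gap43 it was 0.22 and 0.28. The test of the HET difference against the KO or WT difference called neither gene. Elavl4 (0.83, adjusted p = 0.161) and Nefm (0.59) were not called, but another probe set of Elavl4 differed by 1.02 (adjusted p = 0.0203, every probe set tested).

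Most genes of signalling between epithelium and mesenchyme were not called or not tested. Of 15 hedgehog, Wnt and BMP genes tested, 2 were called higher, 3 lower and 10 not (median 0.23), and 21 of 36 matched genes did not pass the filter. These shares, 13.3% higher and 20% lower, lie near the 15.1% and 17.4% over all genes tested. Axin2, a target of canonical Wnt signalling, had 7.34 and 7.2 in colon HET, against 5.94 and 6.02 in stomach HET (difference 1.29, SE 0.23, at least 0.73, adjusted p = 0.00228, limma), although its other probe set, under the filter level, differed by 0.14. Wnt4 differed by −2.59 (at least −1.51) and Bmp2 by −1.30. The hedgehog ligands split, with Shh lower in colon HET (5.80 and 5.74, against 6.99 and 6.88 in stomach HET, difference −1.16, at least −0.39) and Ihh higher (8.41 and 8.57, against 7.75 and 7.95, difference 0.64). Each of these calls ended without any 1 of the 4 HET arrays, with adjusted p from 0.0663 to 0.0847 for Shh and from 0.0811 to 0.167 for Ihh, and with colon WT 2 in the fit. The hedgehog effector Gli2 (0.91) and the BMP antagonist Grem1 (0.72) were not called.

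Of 15 endothelial genes, 2 were called higher and 3 lower in colon HET (median −0.19), a share close to that over all genes. One of the higher ones was Car4, also an epithelial gene of the colon, and the other was the lymphatic Lyve1 (1.43). The growth factor receptors Kdr (−1.15, at least −0.71) and Flt1 (−0.86, at least −0.50) and the diaphragm protein Plvap (−1.08) were lower. Each of the 4 calls other than Car4 ended without single arrays: Lyve1 without stomach HET 2 (0.109) or colon HET 1 (0.0776), Kdr without stomach HET 2 (0.107) or colon HET 1 (0.0952), Flt1 without any 1 array (0.0545 to 0.169) and Plvap without any 1 array (0.0536 to 0.244) and with colon WT 2 in the fit. Esam (−0.54) and Sox18 (−0.40) were not called. Jchain, which links IgA and IgM subunits in plasma cells, had 12.95 and 13.02 in colon HET, against 8.16 and 7.85 in stomach HET (difference 4.98, SE 0.47, adjusted p = 4.9e-05, limma), and Ighm, the IgM heavy chain, differed by 3.99 (at least 2.39); Pou2af1 (0.63) was not called. Only 3 of 12 matched B and plasma cell genes were tested. Thy1, the only T and NK cell gene tested of 12 matched, was called at 1.01 and lost its call without stomach HET 2 (0.57, 0.295), colon HET 1 (0.14) or colon HET 2 (0.15) and with colon WT 2 in the fit (0.072). The mast cell genes Mcpt2 (−2.87, at least −0.71) and Cpa3 (−1.27, at least −0.22) were lower in colon HET, the second losing its call without stomach HET 1 (0.0559). Kit, given above as a marker of interstitial and mast cells, was higher (1.45). Of 11 macrophage and mast cell genes, 1 (Kit) was called higher (9.09%), 2 lower (18.2%) and 8 not (median 0.20). The complement genes C1qa (0.76) and C1qb (0.89) were not called but were called higher without colon HET 2 (1.08, 0.0342, and 1.27, 0.031), and C1qb also without stomach HET 1 (1.34, 0.0154). Among 18 proliferation genes, Top2a alone was called (0.99), a call lost without stomach HET 2 (0.69, 0.238), colon HET 1 (0.141) or colon HET 2 (0.113) and with colon WT 2 in the fit (0.053). Ccna2 (0.74, adjusted p = 0.0737) was called without stomach HET 1 (1.06, 0.0431), and Mcm3 (−0.77) was not called.

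Genes of neighbouring tissues differed between the groups as well. On the pancreas list, 6 of 7 tested were called lower and none higher in colon HET, with list means of 5.50 and 5.71 in colon HET, against 8.10 and 8.15 in stomach HET. Amy2a5, pancreatic amylase, had 5.23 and 5.40 in colon HET, against 13.34 and 13.80 in stomach HET (difference −8.26, SE 1.16, at least −7.02, adjusted p = 0.000545, limma). Try5 differed by −7.62 (at least −5.71), Pnliprp1 by −6.48 (at least −5.18) and Cel by −4.28 (at least −2.47), while Cela1 (−0.26) was not called. Of the defining genes, Cpa1 was at 4.10 and 4.18 in colon HET, against 4.14 and 4.16 in stomach HET. Clps, also a defining gene, is given here by a probe set other than the one kept for the gene. This probe set had 11.41 and 11.85 in colon HET, against 13.98 and 14.19 in stomach HET. Its difference was −2.45 (adjusted p = 0.0214, limma, every probe set tested). Cpa1 and Clps were picked after their values were seen, and values of the defining genes Prss2 and Pnlip are not given in the text. Pla2g1b, among the 10 largest stomach genes, is also made by pancreatic acinar cells, and the part of pancreatic tissue in its difference was not tested.

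On the squamous list, 5 of 7 were called lower in colon HET. Krtdap, a keratinocyte differentiation gene, had 4.77 and 5.25 in colon HET, against 12.37 and 8.26 in stomach HET (difference −5.31, at least −3.77, adjusted p = 0.00336, limma), and Sprr3, a cornified envelope gene, had 4.82 and 4.27, against 11.53 and 7.64 (difference −5.04, at least −3.04). In both, stomach HET 1 was far above stomach HET 2, and without it the differences were −3.25 and −3.09 with the calls kept. Krt13 (−4.80, at least −2.42) and Krt1 (−4.72, at least −2.68) lost their calls without stomach HET 1 (−2.63, 0.0545, and −2.88, 0.0779) and without colon HET 1 (0.0583 and 0.0637), and Krt13 also without colon HET 2 (0.0566). Krt10 was not called (−2.10) but was called lower without stomach HET 2 (−3.88, adjusted p = 0.00392), and Sfn (1.29) was called higher without colon HET 1 (2.04, 0.0433). Between KO tissues Krtdap differed by −0.21.

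Of 6 liver genes tested, 4 were called lower in colon HET. Alb, serum albumin, had 5.70 and 6.17 in colon HET, against 8.40 and 11.65 in stomach HET (difference −4.09, at least −3.48), and lost its call without stomach HET 2 (−2.46, adjusted p = 0.13), colon HET 1 (0.0861) or colon HET 2 (0.0572). Ttr, the thyroxine carrier that endocrine cells also make, had 7.19 and 7.47 in colon HET, against 12.68 and 12.67 in stomach HET (difference −5.35, adjusted p = 2.98e-06). Mup3 (−3.26, at least −2.06) lost its call without any 1 array (0.0698 to 0.0769), and Serpina1b (−1.72, at least −1.33) without stomach HET 2 (−1.15, 0.148), colon HET 1 (0.057) or colon HET 2 (0.0926) and with colon WT 2 in the fit (0.116). Tat (1.69) and Hp (0.38) were not called.

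Small intestine genes went both ways, with 2 of 7 called higher and 4 lower in colon HET. Fabp2, the intestinal fatty acid binding protein, had 13.38 and 13.51 in colon HET, against 5.83 and 7.17 in stomach HET (difference 6.94, SE 0.40, at least 6.90, adjusted p = 1.52e-06, limma). Apoa1, an apolipoprotein, had 5.59 and 6.19 in colon HET, against 13.77 and 13.86 in stomach HET (difference −7.93, SE 0.49, at least −7.27), and Apoa4 differed by −6.51 (at least −4.48), Rbp2 by −2.72 and Fabp1 by −2.68 (at least −2.39). Fabp1 lost its call without stomach HET 2 (0.0686), colon HET 1 (0.0544) and with colon WT 2 in the fit (0.168), and Apoc3 (0.42) was not called. The ileal markers Fabp6 (6.33 and 5.85 in colon HET, 5.46 and 4.83 in stomach HET) and Fgf15 (4.90 and 4.07, against 4.40 and 4.09) stayed under the filter level, and both were picked with their values known.

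Muscle, fat and mesothelium genes gave smaller counts. Of skeletal muscle genes, Acta1 (2.11, at least 1.93) and Ckm (1.16) were called higher and Myh7 (−3.35, at least −1.15) and Tnni2 (−3.01, at least −1.39) lower in colon HET. Acta1 lost its call without any 1 array (0.0824 to 0.191), and Ckm without stomach HET 1 (0.075) or colon HET 2 (0.0709), and both with colon WT 2 in the fit. The mesothelial gene Upk3b had 8.72 and 8.10 in colon HET, against 6.32 and 4.78 in stomach HET (difference 2.86, at least 1.87), a call lost without stomach HET 2 (0.0777) or colon HET 1 (0.0648). Cav1 differed by 0.96, Gpm6a by −2.63, Krt18 by −0.22 and Krt19 by 0.15, the last 2 not called. Of fat genes, Retn was called (1.5) and lost its call without any 1 array (0.0948 to 0.12), and Adipoq (2.11) and Lpl (−1.16) were not called. Some further probe sets of the called genes Pla2g1b, Tbx3, Top2a, Igf1r, Eln, Npnt, Krt13 and Tnni2 did not pass the filter. Their differences were smaller or opposite. Pla2g1b, Npnt and Tnni2 also had a further probe set called in the same direction (−9.45, −1.59 and −1.39, every probe set tested). So did Lyve1 (1.21), Stmn2 (1.74), Fabp1 (−3.43), Car13 (−0.78), Flt1 (−1.14), Serpina1b (−1.79) and Upk3b (2.99), whose calls are described above as lost in some fits. The part of these neighbouring tissues in the other differences was not tested.

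**Figure D5:**
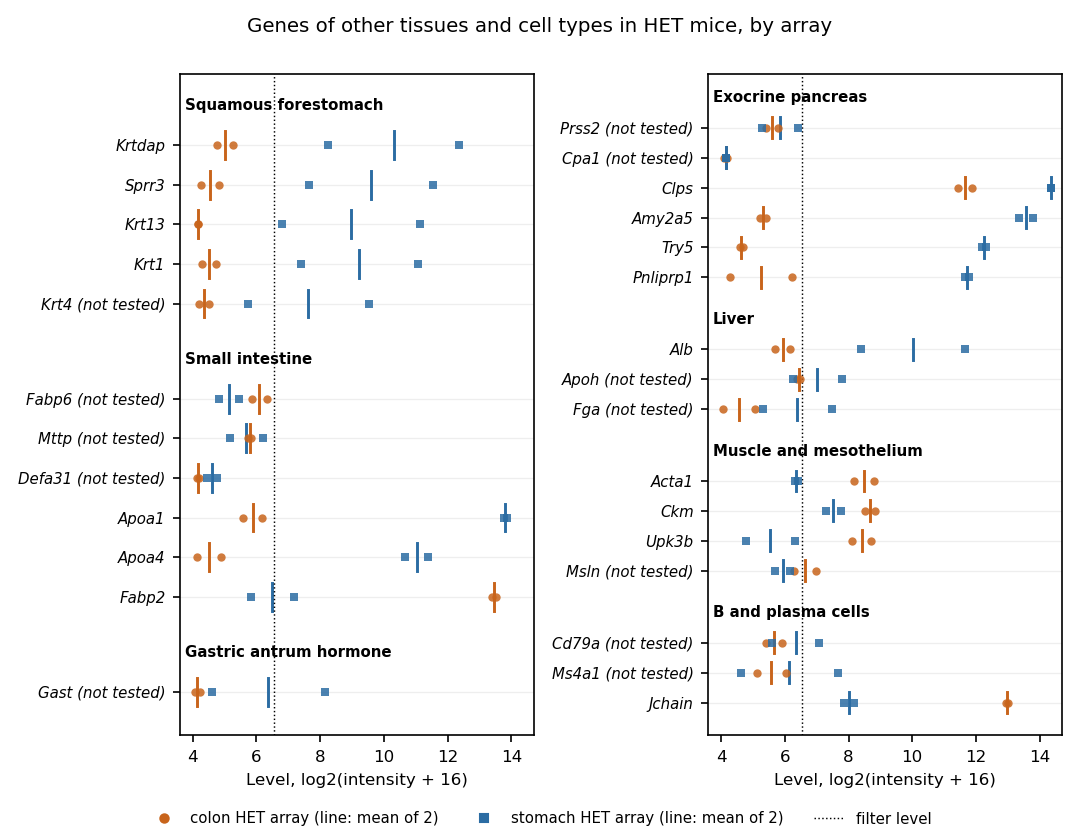
Log2(intensity + 16) (horizontal axis) of genes that mark other tissues and cell types in each colon HET and stomach HET array, 1 point per array, a short line at each group mean and a dotted line at the filter level; plotted genes without a mention in the text were picked with their values known. The 2 stomach HET points lie far apart for Krtdap, Sprr3 and Alb, while for Amy2a5 and Try5 both are high and both colon HET points are low.

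The tissue difference of HET mice was set against that of the other genotypes in the same fit. Of the 2572 genes called in HET, 2535 (98.6%) had the same sign between KO tissues, and over the 7914 genes the 2 sets of differences had a Pearson correlation of 0.947, a description across genes that share probes, fit and normalization. Between KO tissues 1185 genes were called higher and 1438 lower in colon. Of these, 898 higher calls were shared with HET (75.3% of the HET calls and 75.8% of the KO calls), and 1073 lower calls (77.8% and 74.6%). In the test of the HET difference against the KO difference, limma called no gene, against 302 (3.82%) at an unadjusted p under 0.05. With WT, whose colon side rests on colon WT 1 alone and assumes that this array varies like the other groups, 2503 genes (97.3%) had the same sign with a correlation of 0.940. That test called 2 genes (0.0253%), against 480 (6.07%) at an unadjusted p under 0.05.

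The 2 genes that differed from WT were the serum amyloid genes Saa1 and Saa2, acute phase proteins that intestinal epithelium makes in response to microbes. Saa1 had 12.81 and 12.87 in colon HET, against 4.19 and 5.87 in stomach HET, and was at 5.73 in colon WT 1. Saa2 had 12.81 and 12.89 in colon HET, against 4.16 and 5.01 in stomach HET, and was at 5.53 in colon WT 1. The tissue difference of HET exceeded that of WT by 7.03 for Saa1 (adjusted p = 0.0426, limma) and 7.75 for Saa2 (adjusted p = 0.027). Colon KO arrays were also high, at 13.07 and 13.34 for Saa2, and Saa1 reached 13.28 in the higher of them. The other probe set of Saa2 gave a HET difference of 2.97. The 2 genes are near-identical copies whose probes may share signal, and the contrast rests on 1 WT colon array. No gene was called in the test against WT without stomach HET 1, colon HET 1 or colon HET 2. The smallest adjusted p against KO, 0.0668, belonged to Rap1gap and Tesc. Rap1gap, an inactivator of the small GTPase Rap1, had 10.17 and 9.95 in colon HET, against 8.99 and 9.14 in stomach HET, and 6.94 and 7.61 in colon KO (HET difference 1.0, KO difference −1.56). Its HET call ended without colon HET 1 (0.0508) and with colon WT 2 in the fit. Tesc, a calcineurin-like regulator of sodium and proton exchange, differed by −2.95 in HET and by −5.23 in KO. Neither difference between genotypes was called.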

How the data were processed

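The deposited values are array intensities on a linear scale, 1 per probe set and array, as the authors' software produced them. Per the submitters' processing notes, MAS5 was used for 9 arrays, all 4 HET arrays among them, and RMA for 3, with no version given, yet the deposited intensities of all arrays share one trimmed mean of about 500 (500.07 to 500.09). Array medians were 123.8 to 159.1. Of 22716 probe sets, 90 were controls, and 18003 named 1 gene, 287 several and 4336 none.

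Values were transformed as log2(intensity + 16), quantile-normalized over 11 arrays, and reduced to 1 probe set per gene, the one with the highest mean. Genes at or over the 40th percentile in at least 2 of the 4 HET arrays were fitted in limma 3.58.1 (R 4.3.3), with a mean per tissue and genotype and an intensity trend, 5 residual and 4.3 prior degrees of freedom, and Benjamini-Hochberg adjustment over the 7914 genes. Figures used matplotlib 3.10.9 under Python 3.11.15. Tested on simulated data of the HET comparison with 7914 genes, the fit recovered 23, 46, 50 and 49 of 50 genes changed by 1, 2, 3 and 4 log2 units, with 6 false calls.

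The text names Spdef and the tissue markers, the paralogue sets, up to 4 called genes per list and direction with up to 2 not called, the 10 largest differences each way and the genes of the genotype tests. Genes named outside this rule are said to be. The comparison, the gene lists and the members were chosen with earlier results of these data known. Alternatives changed the normalization, offset, filter, trend, arrays and probe sets, added a replicate block or left out arrays. Promoter windows came from RefSeq, GRCm38.p6.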

Additional observations from a re-analysis of the deposited data

Results flagged for a closer look

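The colon minus stomach difference was larger in HET than in WT for Saa2, by 7.75 on the log2 scale (limma, adjusted p = 0.027), and for Saa1, by 7.03 (adjusted p = 0.0426). The WT side of the colon is 1 array, and no gene was called in this test with an offset of 1, without the intensity trend, with the replicate block, or without stomach HET 1, colon HET 1 or colon HET 2. Fabp6, an ileal bile acid binding protein, was at 6.32 and 5.84 in colon HET on the scale of all 12 arrays, against 14.42 in colon WT 2, an array outside the fit with a signal far above that of the colon HET arrays. The colonic genes Hoxa10 and Car1 were at 4.81 and 6.65 in that array.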

How the results depend on the processing

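Under the alternatives that kept all 4 HET arrays and 1 probe set per gene, 859 to 1482 genes were called higher and 994 to 1655 lower in colon HET. With every probe set tested, 1652 probe sets were called higher and 1906 lower. Under these 11 alternatives, higher calls made up 45.9% to 49% of all calls, against 46.4% in the fit reported. Leaving out 1 HET array gave 742 to 862 higher and 814 to 954 lower. Of 198 named genes called, 140 kept their call under every one of the 15 alternatives in which they were tested, 58 lost it under at least 1, and no named gene changed sign where it was called. With all 4 HET arrays kept, 38 calls of named genes were lost with colon WT 2 in the fit, 8 on the arrays noted as MAS5, 7 with no filter, 5 without the intensity trend, 4 with an offset of 1, 2 with an offset of 64, 2 with the replicate block and 1 without quantile normalization. Without 1 HET array, 25 to 36 were lost. The median difference of carbonic anhydrases, 0.02 in the fit reported, was −0.40 with no filter, −0.09 without stomach HET 2, −0.10 without colon HET 1 and 0.13 without colon HET 2. With no filter, the median of the small intestine list was 0.14, against −2.68, and that of B and plasma cells −0.34, against 3.99; more genes of each list then counted. The test of the HET against the KO difference called 2 genes without quantile normalization, and 0 to 4 with 1 HET array left out. The test against WT, with 2 calls, gave 1 without quantile normalization, 0 with an offset of 1, 5 with an offset of 64, 1 with no filter, 0 without the intensity trend, and 0 to 2 with 1 HET array left out; the cause was not tested. With the replicate number as a block, 1209 genes were called higher and 1361 lower and the test against WT called 0. Same-numbered arrays deviated from their group means with correlations of 0.0219 in HET and 0.0819 in KO. Each value rests on 1 replicate difference per tissue, so it cannot tell whether same-numbered arrays came from the same animal. The number of arrays and low signal near the filter level limit the smaller differences.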
